A study of Homo sapiens with 24 samples.

Results

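The G2/M and mitotic spindle genes are 46 genes whose products carry a cell from G2 through mitosis, and their RNA was followed in HCT116 cells of 3 p53 genotypes under 4 treatments. Members were listed by gene symbol, with no threshold on measured values, and matched to the gene identifiers of the deposited tables. All 46 were among the 60675 identifiers of every library. All 46 also passed the filter on low counts, and so were 46 of the 20668 genes tested.

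HCT116 is an established human colorectal carcinoma line of epithelial origin. The 3 lines, each named here as the labels name its p53, were Mutant, Null and wild type (WT), and each p53 status was represented by 1 line, so the line and its p53 status cannot be told apart. Each line received the combination of 20 uM APR-246 and 6 Gy of irradiation, irradiation alone, APR-246 alone, or solvent, with 2 libraries per group and 24 in all. All lines grew in McCoy 5A medium with serum, and irradiated cells were collected 72 h after irradiation. APR-246 is a small molecule developed to restore activity to mutant p53, and solvent is its vehicle. Replicates carry numbers in the labels, with no word on separate cultures, and p-values therefore cover the spread among these libraries and nothing more.

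In G2, CDK1 bound to cyclin B is held inactive by phosphorylation until phosphatases of the CDC25 family remove it, and the kinases PLK1 and AURKA act beside it to bring the cell into mitosis. The genes of this programme are transcribed late in the cell cycle by the MuvB complex with MYBL2 and then FOXM1, and are repressed in resting cells by the DREAM complex, in which MuvB is joined by a pocket protein of the RB family and an E2F factor. Wild-type p53 lowers many of them indirectly, through its target CDKN1A, whose product p21 inhibits cyclin-dependent kinases and favours DREAM. In RNA from whole cultures, fewer cells in G2 or mitosis and less RNA per cell cannot be told apart.

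MuvB reaches these genes through a short promoter element named CHR, often beside CCAAT boxes bound by the factor NF-Y, so the promoters of 6 members that the results return to are shown. They were taken from RefSeq on GRCh38.p14 and run from 250 bases before to 50 bases after the gene's start, 5′ to 3′ on the gene's strand. Capitals mark CHR matches (TTTGAA or TTCGAA, searched on both strands) and CCAAT boxes (CCAAT, or ATTGG where the box lies on the other strand). The windows are CDC25C at chr5:138338306-138338605 (minus strand), CCNB1 at chr5:69166900-69167199 (plus), CCNB2 at chr15:59104896-59105195 (plus), PLK1 at chr16:23678639-23678938 (plus), CDK1 at chr10:60778081-60778380 (plus) and AURKB at chr17:8210176-8210475 (minus).
CDC25C: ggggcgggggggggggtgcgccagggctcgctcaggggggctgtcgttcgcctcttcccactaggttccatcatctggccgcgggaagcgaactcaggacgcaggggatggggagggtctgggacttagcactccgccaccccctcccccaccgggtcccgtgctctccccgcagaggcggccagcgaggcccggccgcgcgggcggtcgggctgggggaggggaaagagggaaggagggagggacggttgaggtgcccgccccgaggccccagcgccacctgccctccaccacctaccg
CCNB1: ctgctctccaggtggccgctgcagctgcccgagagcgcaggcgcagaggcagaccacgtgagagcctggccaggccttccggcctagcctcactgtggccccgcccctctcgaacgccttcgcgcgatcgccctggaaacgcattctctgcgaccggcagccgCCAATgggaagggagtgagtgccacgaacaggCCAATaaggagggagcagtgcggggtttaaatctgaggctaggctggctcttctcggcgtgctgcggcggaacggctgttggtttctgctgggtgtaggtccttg
CCNB2: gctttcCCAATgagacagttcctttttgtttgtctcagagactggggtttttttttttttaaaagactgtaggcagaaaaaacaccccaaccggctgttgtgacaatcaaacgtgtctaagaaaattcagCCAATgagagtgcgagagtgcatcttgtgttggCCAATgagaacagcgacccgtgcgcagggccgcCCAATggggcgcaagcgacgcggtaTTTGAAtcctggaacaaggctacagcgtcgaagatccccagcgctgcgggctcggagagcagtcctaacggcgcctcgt
PLK1: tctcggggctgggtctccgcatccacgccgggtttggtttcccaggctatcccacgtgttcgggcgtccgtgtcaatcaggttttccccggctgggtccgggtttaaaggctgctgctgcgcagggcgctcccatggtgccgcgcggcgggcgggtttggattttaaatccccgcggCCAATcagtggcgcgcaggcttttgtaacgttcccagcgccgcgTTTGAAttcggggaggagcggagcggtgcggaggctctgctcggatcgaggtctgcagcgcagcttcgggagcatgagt
CDK1: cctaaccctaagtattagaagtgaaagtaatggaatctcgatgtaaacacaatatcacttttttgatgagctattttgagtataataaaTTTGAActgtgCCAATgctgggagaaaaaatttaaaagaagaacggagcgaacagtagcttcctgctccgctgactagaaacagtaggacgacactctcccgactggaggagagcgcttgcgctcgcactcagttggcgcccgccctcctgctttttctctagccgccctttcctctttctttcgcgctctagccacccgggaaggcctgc
AURKB: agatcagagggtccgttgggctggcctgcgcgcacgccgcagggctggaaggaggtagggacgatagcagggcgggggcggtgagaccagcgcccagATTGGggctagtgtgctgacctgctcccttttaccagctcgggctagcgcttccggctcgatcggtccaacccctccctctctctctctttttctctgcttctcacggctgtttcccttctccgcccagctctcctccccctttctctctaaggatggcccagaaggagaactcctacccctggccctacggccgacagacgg

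CCNB2 held 4 CCAAT boxes and 1 CHR match, whose first base lay 29 bases before the start, and PLK1 held 1 box and 1 CHR match at the same distance. CDK1 held 1 CHR match, 161 bases before the start, and 1 box. CCNB1 held 2 boxes and AURKB held 1, both without a CHR match, and the window of CDC25C held neither sequence. The RefSeq table gave a promoter for 39 of the 46 members. A CHR match stood in 27 of these 39 (69.2%), against 16.6% of 27305 promoters of the same length, and within 50 bases of the start in 22 (56.4%, against 5.1%). CCAAT stood in 30 (76.9%, against 35.7%), at least 2 boxes in 19 (48.7%, against 11.3%), and both sequences in 23 (59.0%, against 6.6%). These are matches of letters and say nothing on their own about binding. Only 1 window per gene was searched, and for the listed sequences alone. An element at another start, or with other letters, would be missed.

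The deposited values are read counts scaled to a fixed total per library (CPM), from 53184139 to 58058729 reads per library, and 3 reads correspond to 0.0517 to 0.0564 CPM. The p53 target CDKN1A was read at 88.7 to 240.4 CPM in the 8 Mutant libraries and 140.3 to 357 CPM in the 8 Null libraries, against 508 to 2253 CPM in the 8 WT libraries. The epithelial genes EPCAM (58.2 to 225 CPM) and KRT8 (2355 to 9283 CPM) were read in every library, while the highest value of the 5 blood cell markers was 0.731 CPM (CD79A) and of the 5 fibroblast markers COL1A1 was read at 11.5 to 67.9 CPM and the next, COL1A2, at 1.20 CPM or less. Libraries of the same group differed in how their values followed the GC percent of genes: the slope ran from -0.697 (first Mutant solvent library) to 0.645 (second Null combination library) on the log2 scale per 10 points of GC. The first library had the lower slope in every group except Null APR-246. Because of these differences, the counts of called members in Mutant, Null and WT are set beside those of a fit that carries that slope as a covariate, called the GC slope fit. The main test holds no term for replicate number. Fits that hold one are given in the last section, and they called more members in Mutant and Null minus WT after irradiation and after the combination.

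By limma, 10 of the 46 members were higher in Mutant and Null than in WT after irradiation and 17 after the combination, and 0 under APR-246 alone or solvent, where nearly all differences were also above 0. The difference was tested as the mean of Mutant and Null minus WT. Members and other genes given as higher in Mutant and Null were called for that mean. The test was limma on log2(CPM + 0.5), after TMM scaling, over all 20668 genes. A call means a Benjamini-Hochberg adjusted p below 0.05 in that limma fit unless another tool or fit is named. After irradiation 10 of 46 members were called higher and 0 lower, where 0.527% of all genes were called higher. The median difference of the 46 was 1.01 on the log2 scale, or 2.01-fold, beside a median of -0.01 over all genes tested. It was above 0 for 45 of 46 members, the exception being NUSAP1 at -0.06. After the combination 17 of 46 were called higher, where 1.34% of all genes were. The median was 1.08 (2.11-fold) beside -0.02 over all genes, and for the mean of the lines only KIF18A lay below 0, at -0.29. Line by line, all 46 lay above WT in Mutant after the combination. In Null 38 lay above WT and 8 below it, down to KIF18A at -1.11.

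The members called after irradiation were CDC25C, CCNB2, CCNA2, AURKA, CDCA8, CENPA, KIF2C, KIF4A, KIF20A and TPX2. After the combination the same 10 were called, together with CCNB1, INCENP, BIRC5, PRC1, UBE2C, ESPL1 and FOXM1. Under APR-246 alone the median difference was 0.56 (1.48-fold), with 43 of 46 above 0. Limma called 0 members there, where it called 0.0871% of all genes higher. By limma 15 of the 46 had an unadjusted p below 0.05, beside 1367 of all 20668 genes. EdgeR called 0 members and DESeq2 called CCNA2 and KIF4A (0.416% of all genes). Under solvent the median was 0.49 (1.40-fold), and all 46 members were above 0. Limma, edgeR and DESeq2 each called 0, where limma called 0.131% of all genes higher. By limma 2 of the 46 had an unadjusted p below 0.05, beside 996 of all 20668 genes. After irradiation edgeR called 8 members (0.29% of all genes), without AURKA and CDCA8, and DESeq2 called 12 (1.01%), adding BUB1 and NEK2. After the combination edgeR called 13 (0.682%), without BIRC5, CCNB1, FOXM1 and UBE2C, and DESeq2 called 27 (2.72%), adding AURKB, BUB1, CDC20, CDC25B, MYBL2, NEK2, PLK1, PTTG1, SPC24 and SPC25.

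These counts rested on few libraries. Leaving out the first WT irradiation library lowered the irradiation count to 3, and leaving out either Mutant irradiation library or the first Null irradiation library lowered it to 6. Leaving out the first WT combination library lowered the combination count to 4, and leaving out the second lowered it to 5. With the GC slope in the fit, 42 members were called after irradiation (5.84% of all genes were called higher), 43 after the combination (5.98%), 19 under APR-246 (2.22%) and 11 under solvent (1.84%). That fit gave 34 to 43 calls after irradiation and 38 to 44 after the combination when each of the 24 libraries was left out in turn, but 1 to 37 under APR-246 and 1 to 25 under solvent.

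**Figure D1:**
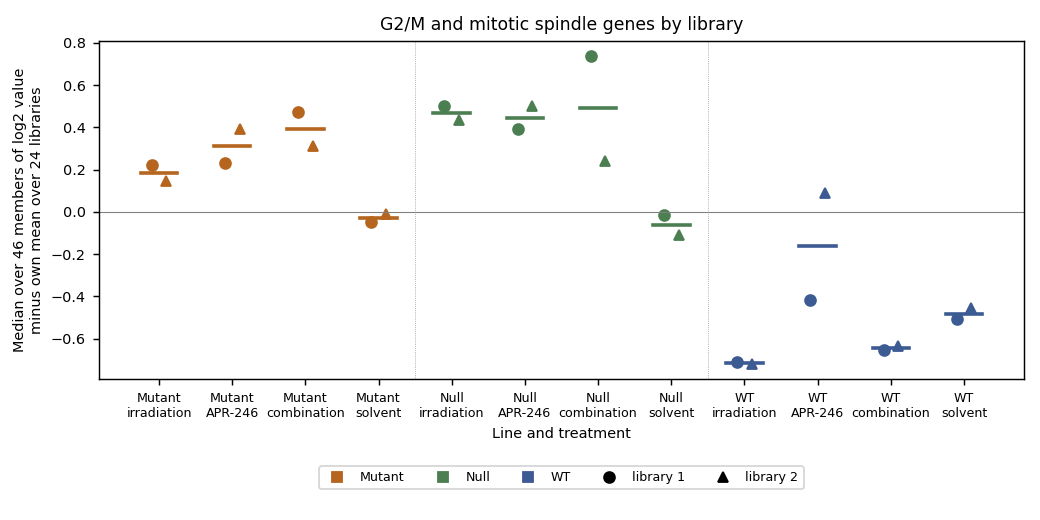
Median over the 46 members of log2(CPM + 0.5) relative to each member's own mean over 24 libraries (y axis, log2 scale, TMM-scaled), by line and treatment (x axis); each point is 1 library, circles the first and triangles the second of a group, and the bars are group means. The 2 WT irradiation libraries sit at -0.71 and -0.72, the lowest of the 24, and the Null combination libraries at 0.74 and 0.24.

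The plot of library medians shows the order over all libraries. Irradiated libraries lay at 0.22 and 0.15 in Mutant and 0.50 and 0.43 in Null, against -0.71 and -0.72 in WT, and combination libraries at 0.47 and 0.31 in Mutant and 0.74 and 0.24 in Null, against -0.65 and -0.64 in WT. The 4 Mutant and Null libraries lay above both WT libraries under both treatments. With APR-246 alone the medians were 0.23 and 0.39 in Mutant and 0.39 and 0.50 in Null, against -0.42 and 0.09 in WT, and with solvent they were -0.05 and -0.01 in Mutant and -0.02 and -0.11 in Null, against -0.51 and -0.45 in WT. WT libraries under solvent were thus already below the others, by less than after irradiation. For 37 of the 46 members all 4 irradiated Mutant and Null libraries lay above both irradiated WT libraries after scaling, where 8.36% of all genes did so. The number was 28 after the combination (15.2% of all genes), 14 under APR-246 (4.85%) and 6 under solvent (3.15%). The order of the 3 lines was also taken by mean deposited CPM, without TMM scaling, and for the members alone, with no share over all genes. WT was the lowest line for 44 members after irradiation, 38 after the combination, 40 under APR-246 and 36 under solvent. Null was the highest line for 42 members after irradiation, 21 after the combination, 27 under APR-246 and 15 under solvent, and Mutant for 4, 25, 17 and 31.

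**Figure D2:**
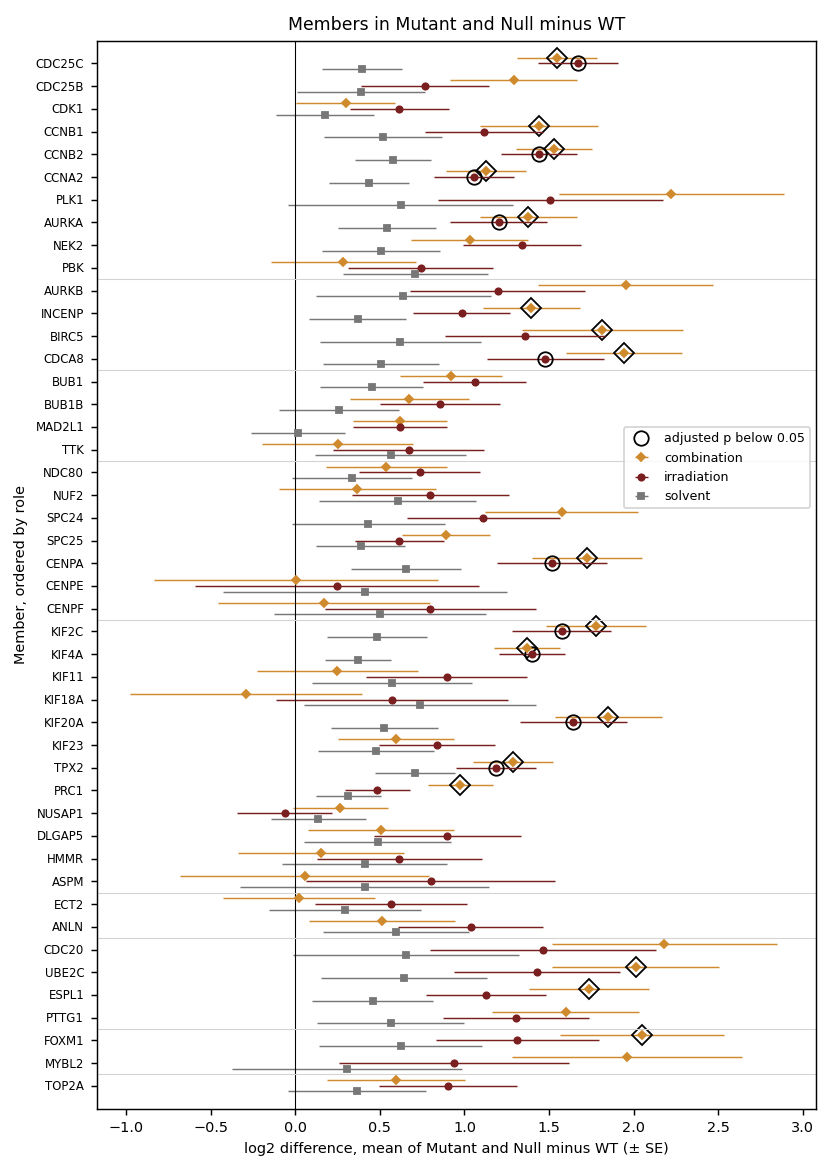
Log2 difference of the mean of Mutant and Null minus WT (x axis, with SE) for each of the 46 members (y axis, ordered by role), after the combination (diamonds), after irradiation (circles) and under solvent (squares); ringed points have an adjusted p below 0.05. CDC25C lies at 1.55 after the combination, 1.67 after irradiation and 0.39 under solvent.

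Among the 10 genes of mitotic entry, 4 were higher in Mutant and Null after irradiation (median of the 10, 1.16) and 5 after the combination (median 1.33). Values by library are given below as deposited CPM, statements on overlap refer to them, differences are on the log2 scale with SE, and gene positions are those of GENCODE on GRCh38. Overlap differed for some of these members after TMM scaling, the scale that was tested. After scaling, WT lay below the other lines for CDK1, TOP2A and PRC1 after irradiation and for BUB1 after the combination, which overlapped in deposited CPM, while MYBL2 overlapped after irradiation. Scaling also brought overlap to CDC25C, KIF2C, CDCA8, ESPL1, AURKA and CCNB1 under both APR-246 and solvent and to CENPA and FOXM1 under solvent, and it separated BUB1 under both, TOP2A under APR-246, and KIF20A and PRC1 under solvent. CDC25C is the phosphatase that removes the inhibitory phosphate from CDK1 at mitotic entry, and its gene lies at chr5:138285265-138338355 (minus strand). After irradiation CDC25C stood at 11.97 and 12.1 CPM in Mutant and 17.2 and 13.9 CPM in Null, against 4.41 and 3.42 CPM in WT. In the combination CDC25C stood at 14.3 and 11.3 CPM in Mutant and 21.6 and 13.3 CPM in Null, against 5.82 and 5.15 CPM in WT. WT was below every Mutant and Null library under both treatments, and the difference was 1.67 ± 0.24 with adjusted p = 0.00072, 3.19-fold, after irradiation and 1.55 ± 0.24 with adjusted p = 0.00134, 2.92-fold, after the combination. With APR-246 alone CDC25C was at 12.9 and 12.9 CPM in Mutant and 15.5 and 18.5 CPM in Null, against 10.01 and 11.4 CPM in WT, and under solvent at 13.7 and 13.1 CPM in Mutant and 14.9 and 12.4 CPM in Null, against 10.1 and 10.3 CPM in WT. These deposited values also did not overlap, but the differences of 0.52 and 0.39 on the log2 scale did not pass the test.

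CCNB1 and CCNB2 encode the B-type cyclins that activate CDK1, and their genes lie at chr5:69167010-69178245 (plus strand) and chr15:59105078-59125045 (plus strand). CCNB2 after irradiation stood at 45.6 and 40.2 CPM in Mutant and 75.4 and 47.3 CPM in Null, against 20.3 and 16.1 CPM in WT. CCNB2 after the combination stood at 60.7 and 49.8 CPM in Mutant and 96.8 and 44.1 CPM in Null, against 22.8 and 24.7 CPM in WT. The irradiation difference of CCNB2 was 1.44 ± 0.22 with adjusted p = 0.00179, 2.71-fold, and the combination difference 1.53 ± 0.22 with adjusted p = 0.000989, 2.89-fold, with no overlap between WT and the other lines. CCNB2 under APR-246 read 54.2 and 42.3 CPM in Mutant and 53.1 and 65.1 CPM in Null, against 34.8 and 40.3 CPM in WT, and under solvent 50.8 and 36.9 CPM in Mutant and 44.8 and 34.5 CPM in Null, against 27.9 and 27.6 CPM in WT. Again the WT libraries were the lowest, by smaller amounts that were not called (0.56 and 0.58). CCNB1 after irradiation stood at 165 and 161 CPM in Mutant and 204 and 169 CPM in Null, against 73.2 and 85.3 CPM in WT. CCNB1 after the combination stood at 202 and 201 CPM in Mutant and 274 and 199 CPM in Null, against 88.2 and 97.2 CPM in WT. Both WT libraries were below the other 4 in each case, and CCNB1 passed the test after the combination (1.44 ± 0.35 with adjusted p = 0.033) but not after irradiation (1.12 ± 0.35 with adjusted p = 0.165). Its APR-246 libraries read 169 and 195 CPM in Mutant and 171 and 209 CPM in Null, against 92.5 and 166 CPM in WT, and its solvent libraries 144 and 133 CPM in Mutant and 115 and 107 CPM in Null, against 79.5 and 95.6 CPM in WT. The second WT library under APR-246 lay close to the Mutant and Null values, and the first did not.

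CDK1 is the kinase that these cyclins activate, at chr10:60778331-60794852 (plus strand). After irradiation CDK1 read 23.5 and 25.8 CPM in Mutant and 47.2 and 31.3 CPM in Null, against 24.2 and 15.98 CPM in WT. Combination libraries of CDK1 stood at 47.1 and 27.7 CPM in Mutant and 50.8 and 16.6 CPM in Null, against 34.04 and 27.4 CPM in WT. The lines overlapped under both treatments, and limma called neither difference (0.62 ± 0.29 with adjusted p = 0.506 and 0.30 ± 0.29 with adjusted p = 0.571). The GC slope fit called CDK1 after irradiation and not after the combination. Under APR-246 CDK1 read 36.4 and 20.5 CPM in Mutant and 22.6 and 30.7 CPM in Null, against 27.3 and 23.3 CPM in WT, and under solvent 43.9 and 13.6 CPM in Mutant and 23.2 and 19.05 CPM in Null, against 23.96 and 17.1 CPM in WT. The 2 Mutant solvent libraries differed more from each other than the lines did. PLK1, the kinase that acts on CDC25C, centrosomes and kinetochores, lies at chr16:23677656-23690367 (plus strand). PLK1 after irradiation read 269 and 298 CPM in Mutant and 258 and 362 CPM in Null, against 70.8 and 146 CPM in WT, and after the combination 261 and 375 CPM in Mutant and 333 and 455 CPM in Null, against 71.6 and 105 CPM in WT. All Mutant and Null libraries were above both WT libraries, yet limma did not call the difference after irradiation (1.51 ± 0.67 with adjusted p = 0.444) or after the combination (2.22 ± 0.67 with adjusted p = 0.0879). Under APR-246 PLK1 read 196 and 368 CPM in Mutant and 258 and 264 CPM in Null, against 104 and 225 CPM in WT, and under solvent 149 and 269.7 CPM in Mutant and 144 and 220.3 CPM in Null, against 77.7 and 197 CPM in WT. The 2 WT libraries under each of these treatments lay far apart, and the lines overlapped. In the GC slope fit PLK1 differed by 1.41 with adjusted p = 4.46e-06 after irradiation and 1.26 with adjusted p = 4.41e-05 after the combination.

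AURKA, the kinase of centrosome maturation and spindle assembly, lies at chr20:56369389-56392337 (minus strand). After irradiation AURKA stood at 61.8 and 60.7 CPM in Mutant and 98.5 and 70.98 CPM in Null, against 29.2 and 31.7 CPM in WT. In the combination AURKA stood at 75.7 and 72.3 CPM in Mutant and 121 and 73.7 CPM in Null, against 34.7 and 39.5 CPM in WT. WT was lowest throughout, with a difference of 1.20 ± 0.29 with adjusted p = 0.042 after irradiation and 1.38 ± 0.29 with adjusted p = 0.0136 after the combination. APR-246 libraries of AURKA read 60.5 and 62.9 CPM in Mutant and 76.7 and 89.1 CPM in Null, against 37.9 and 59.01 CPM in WT, and solvent libraries 48.2 and 43.9 CPM in Mutant and 52.8 and 37.2 CPM in Null, against 30.4 and 31.99 CPM in WT; neither difference was called. CCNA2, the A-type cyclin of S phase and G2, differed by 1.06 ± 0.24 with adjusted p = 0.0271 after irradiation and 1.13 ± 0.24 with adjusted p = 0.0136 after the combination. NEK2, a kinase of centrosome separation, differed by 1.34 (adjusted p = 0.068) and 1.03 on the log2 scale. PBK, a mitotic kinase, differed by 0.74 and 0.28, and CDC25B, another CDC25 phosphatase, by 0.77 and 1.29. Limma called none of the 3. DESeq2 called NEK2 after irradiation, and NEK2 and CDC25B after the combination, and the GC slope fit called all 3 under both treatments.

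Of the 4 members of the chromosomal passenger complex, which corrects chromosome attachment and guides cytokinesis, 1 was higher in Mutant and Null after irradiation (median of the 4, 1.28) and 3 after the combination (median 1.88). CDCA8, the borealin subunit, lies at chr1:37692418-37709719 (plus strand). After irradiation CDCA8 stood at 85.02 and 80.3 CPM in Mutant and 106 and 95.3 CPM in Null, against 28.8 and 35.4 CPM in WT. Combination libraries of CDCA8 stood at 92.4 and 99.9 CPM in Mutant and 117 and 104 CPM in Null, against 28.5 and 33.03 CPM in WT. The lowest of the Mutant and Null libraries was above both WT libraries, and the difference was 1.48 ± 0.34 with adjusted p = 0.035 after irradiation and 1.94 ± 0.34 with adjusted p = 0.00434, 3.85-fold, after the combination. CDCA8 read 70.6 and 88.9 CPM in Mutant and 93.3 and 98.2 CPM in Null, against 39.7 and 57.5 CPM in WT under APR-246 and 52.9 and 62.3 CPM in Mutant and 73.4 and 60.9 CPM in Null, against 42.6 and 45.3 CPM in WT under solvent. In deposited CPM, though not after scaling, the lines were separate there too, without a call.

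INCENP is the scaffold of the complex, at chr11:62123973-62153163 (plus strand). INCENP after irradiation read 122 and 119.9 CPM in Mutant and 166 and 129 CPM in Null, against 68.04 and 64.4 CPM in WT, and after the combination 137 and 106 CPM in Mutant and 157 and 123 CPM in Null, against 56.9 and 56.9 CPM in WT. WT was lowest in both, and the difference was called after the combination (1.40 ± 0.29 with adjusted p = 0.0123) and not after irradiation (0.98 ± 0.29 with adjusted p = 0.121). Under APR-246 INCENP read 111 and 115 CPM in Mutant and 143 and 165 CPM in Null, against 51.1 and 89.8 CPM in WT, and under solvent 70.8 and 68.98 CPM in Mutant and 65.9 and 41.9 CPM in Null, against 50.4 and 44.4 CPM in WT, where 1 Null library lay below both WT libraries. AURKB, the kinase of the complex, lies at chr17:8204733-8210600 (minus strand). AURKB read 117 and 112 CPM in Mutant and 119 and 134 CPM in Null, against 41.3 and 64.1 CPM in WT after irradiation and 109 and 139.7 CPM in Mutant and 130.4 and 143 CPM in Null, against 37.6 and 39.6 CPM in WT after the combination. Every Mutant and Null library exceeded both WT libraries, and limma called neither difference (1.20 ± 0.52 with adjusted p = 0.423 and 1.95 ± 0.52 with adjusted p = 0.0518); DESeq2 called AURKB after the combination, and the GC slope fit gave 1.12 with adjusted p = 4.32e-06 and 1.21 with adjusted p = 4.02e-06. Its values were 88.5 and 129 CPM in Mutant and 131 and 120.5 CPM in Null, against 58.4 and 90.7 CPM in WT under APR-246 and 62.1 and 97.6 CPM in Mutant and 97.96 and 131 CPM in Null, against 42.8 and 86.2 CPM in WT under solvent, with overlap between the lines. BIRC5, the survivin subunit, differed by 1.82 ± 0.48 with adjusted p = 0.0491 after the combination and by 1.36 ± 0.48 with adjusted p = 0.237 after irradiation.

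The products of the 4 spindle checkpoint genes hold anaphase back until chromosomes are attached. Limma called none of the 4 in the level of Mutant and Null minus WT (median 0.76 after irradiation and 0.65 after the combination). By limma 3 and 2 of them had an unadjusted p below 0.05, beside 2061 and 3718 of all 20668 genes. EdgeR called 0 under both treatments and DESeq2 called 1 under each. BUB1, a checkpoint kinase at kinetochores, lies at chr2:110637698-110678114 (minus strand). BUB1 after irradiation read 46.3 and 33.1 CPM in Mutant and 87.3 and 40.5 CPM in Null, against 29.1 and 17.5 CPM in WT, and after the combination 70.1 and 41.5 CPM in Mutant and 97.8 and 28.8 CPM in Null, against 35.8 and 29.7 CPM in WT. The second Null library lay below both WT libraries after the combination, and the differences were 1.06 ± 0.30 with adjusted p = 0.11 and 0.92 ± 0.30 with adjusted p = 0.126. BUB1 under APR-246 read 56.6 and 36.02 CPM in Mutant and 47.7 and 72.01 CPM in Null, against 34.3 and 38.8 CPM in WT, and under solvent 57.4 and 24.7 CPM in Mutant and 42.8 and 23.3 CPM in Null, against 33.1 and 19.4 CPM in WT, with overlap in both. BUB1B, MAD2L1 and TTK, which act in the same checkpoint, differed by 0.85, 0.62 and 0.67 after irradiation and by 0.67, 0.62 and 0.25 after the combination. The GC slope fit called BUB1, BUB1B and TTK after irradiation and after the combination, and MAD2L1 after neither.

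Among the 7 centromere and kinetochore genes 1, CENPA, was higher in Mutant and Null after irradiation and after the combination, with medians of 0.80 and 0.54 over the 7. CENPA is the histone H3 variant that marks centromeres, and it lies at chr2:26764289-26801067 (plus strand). After irradiation CENPA stood at 18.1 and 16.5 CPM in Mutant and 31.9 and 24.9 CPM in Null, against 6.70 and 7.92 CPM in WT. In the combination CENPA stood at 20.8 and 17.7 CPM in Mutant and 34.3 and 23.7 CPM in Null, against 8.27 and 7.45 CPM in WT. Mutant and Null were above WT in every library, by 1.52 ± 0.33 with adjusted p = 0.0212 after irradiation and 1.72 ± 0.33 with adjusted p = 0.00716 after the combination. CENPA read 17.5 and 15.02 CPM in Mutant and 25.9 and 25.6 CPM in Null, against 13.9 and 15.2 CPM in WT under APR-246 and 16.2 and 16.98 CPM in Mutant and 16.2 and 21.3 CPM in Null, against 9.05 and 13.5 CPM in WT under solvent, where 1 Mutant APR-246 library lay below 1 WT library. NDC80, NUF2, SPC24 and SPC25 form the complex that binds microtubules at the kinetochore, and their differences ran from 0.61 (SPC25) to 1.11 (SPC24) after irradiation and from 0.37 (NUF2) to 1.58 (SPC24) after the combination. CENPE, a kinetochore motor, and CENPF, a kinetochore protein, differed by 0.25 and 0.80 after irradiation and by 0.01 and 0.17 after the combination. Limma called none of these 6, DESeq2 called SPC24 and SPC25 after the combination, and the GC slope fit called all 6 after the combination and all but CENPE after irradiation.

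Of the 12 kinesins and spindle proteins 4 were higher after irradiation (median of the 12, 0.87) and 5 after the combination (median 0.55). KIF4A, a chromosome-bound motor of the spindle midzone, lies at chrX:70290090-70420832 (plus strand). After irradiation KIF4A stood at 41.9 and 36.3 CPM in Mutant and 56.1 and 31.7 CPM in Null, against 18.3 and 12.1 CPM in WT. Combination libraries of KIF4A stood at 55.9 and 43.5 CPM in Mutant and 67.2 and 34.8 CPM in Null, against 22.3 and 20.9 CPM in WT. Both WT libraries were below the other 4, and the difference was 1.40 ± 0.20 with adjusted p = 0.000651, 2.64-fold, after irradiation and 1.37 ± 0.20 with adjusted p = 0.000749, 2.59-fold, after the combination. Under APR-246 KIF4A read 44.9 and 31.8 CPM in Mutant and 35.8 and 54.9 CPM in Null, against 31.8 and 24.5 CPM in WT, and under solvent 49.97 and 29.1 CPM in Mutant and 42.4 and 21.02 CPM in Null, against 30.7 and 22.4 CPM in WT. Solvent libraries overlapped, and the second Null solvent library was the lowest of them.

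KIF20A, a motor of the central spindle needed for cytokinesis, lies at chr5:138178719-138187715 (plus strand). KIF20A after irradiation stood at 82.4 and 76.2 CPM in Mutant and 96.98 and 64.3 CPM in Null, against 24.3 and 24.95 CPM in WT. KIF20A after the combination stood at 105 and 88.6 CPM in Mutant and 107 and 62.9 CPM in Null, against 25.8 and 30.99 CPM in WT. WT was well separated, with 1.64 ± 0.32 with adjusted p = 0.0104, 3.12-fold, after irradiation and 1.85 ± 0.32 with adjusted p = 0.00322, 3.60-fold, after the combination. Its APR-246 libraries read 76.04 and 73.2 CPM in Mutant and 71.2 and 80.4 CPM in Null, against 26.7 and 61.4 CPM in WT and its solvent libraries 44.5 and 38.7 CPM in Mutant and 29.7 and 21.6 CPM in Null, against 24.5 and 20.9 CPM in WT. Under solvent the Null and WT values overlapped. KIF2C, a kinesin that depolymerises microtubules at centromeres, lies at chr1:44739818-44767767 (plus strand). KIF2C after irradiation stood at 107 and 101 CPM in Mutant and 150.2 and 122 CPM in Null, against 37.8 and 40.2 CPM in WT. KIF2C after the combination stood at 109.5 and 109 CPM in Mutant and 171 and 119.8 CPM in Null, against 44.2 and 39.8 CPM in WT. All WT values were below all others, by 1.57 ± 0.29 with adjusted p = 0.0082 after irradiation and 1.78 ± 0.29 with adjusted p = 0.00245 after the combination. KIF2C read 87.7 and 95.9 CPM in Mutant and 126 and 132 CPM in Null, against 68.6 and 76.9 CPM in WT under APR-246 and 87.7 and 88.1 CPM in Mutant and 105 and 97.4 CPM in Null, against 62.5 and 74.1 CPM in WT under solvent, in each case without overlap and without a call.

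TPX2, which activates AURKA on spindle microtubules, lies at chr20:31739271-31801805 (plus strand). After irradiation TPX2 stood at 213 and 204 CPM in Mutant and 297 and 225 CPM in Null, against 106 and 95.7 CPM in WT. In the combination TPX2 stood at 260.1 and 221 CPM in Mutant and 353 and 209 CPM in Null, against 128 and 115 CPM in WT. Its difference was 1.19 ± 0.24 with adjusted p = 0.0125 after irradiation and 1.29 ± 0.24 with adjusted p = 0.0054 after the combination, with no overlap. TPX2 read 239 and 210.1 CPM in Mutant and 251.4 and 309 CPM in Null, against 171 and 179.9 CPM in WT under APR-246 and 234 and 205 CPM in Mutant and 294 and 184 CPM in Null, against 148 and 131 CPM in WT under solvent, also without overlap. PRC1, which bundles microtubules of the midzone, lies at chr15:90966038-90995629 (minus strand). PRC1 after irradiation read 1.07 and 0.828 CPM in Mutant and 1.29 and 0.499 CPM in Null, against 0.644 and 0.357 CPM in WT, and after the combination 1.34 and 0.880 CPM in Mutant and 1.15 and 0.682 CPM in Null, against 0.336 and 0.259 CPM in WT. The difference was called after the combination (0.97 ± 0.19 with adjusted p = 0.00895) and not after irradiation (0.48 ± 0.19 with adjusted p = 0.348). PRC1 under APR-246 read 1.06 and 0.945 CPM in Mutant and 0.623 and 1.29 CPM in Null, against 0.603 and 0.588 CPM in WT, and under solvent 0.940 and 0.675 CPM in Mutant and 0.773 and 0.468 CPM in Null, against 0.523 and 0.420 CPM in WT. These counts are uncertain, because 58.4% of the exon bases of PRC1 are shared with other annotated genes, on the same strand AC068831.7 and on the other PRC1-AS1, and the setting used to count strand is not given in the sources used here. NUSAP1, a microtubule-binding protein, shares 62.2% of its exon bases with AC087721.2 and differed by -0.06 after irradiation and 0.27 after the combination. PRC1 and NUSAP1 were also the lowest members per length, at a mean of 0.14 and 0.30 CPM per kb of exon, against 208 CPM per kb for CDC20.

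KIF11, KIF18A, KIF23, DLGAP5, HMMR and ASPM, the other motors and spindle proteins, differed by 0.57 (KIF18A) to 0.90 (DLGAP5) after irradiation and by -0.29 (KIF18A) to 0.59 (KIF23) after the combination, and limma called none of them. The 2 cytokinesis genes ANLN, an actin-binding protein of the cleavage furrow, and ECT2, an activator of RHOA, differed by 1.04 and 0.57 after irradiation and by 0.51 and 0.02 after the combination, and limma called neither. The GC slope fit called these motors, spindle proteins and cytokinesis genes after both treatments. DLGAP5, HMMR, ASPM, KIF18A and ECT2 were among the 9 members whose scaled libraries overlapped after irradiation, with CENPE, CENPF, NUSAP1 and MYBL2.

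The 4 anaphase genes had medians of 1.37 after irradiation, with 0 called, and 1.87 after the combination, with 2 called. ESPL1, the protease separase that opens cohesin, lies at chr12:53268299-53293643 (plus strand). ESPL1 after irradiation read 90.8 and 95.7 CPM in Mutant and 113 and 105 CPM in Null, against 43.2 and 47.3 CPM in WT, and after the combination 101 and 101 CPM in Mutant and 112 and 107 CPM in Null, against 35.2 and 37.5 CPM in WT. WT was lowest in both, and the difference was called after the combination (1.74 ± 0.36 with adjusted p = 0.0121) and not after irradiation (1.13 ± 0.36 with adjusted p = 0.168). ESPL1 read 90.02 and 105 CPM in Mutant and 121 and 117 CPM in Null, against 44.8 and 78.9 CPM in WT under APR-246 and 56.4 and 60.7 CPM in Mutant and 60.1 and 58.4 CPM in Null, against 40.6 and 45.9 CPM in WT under solvent. CDC20, an activator of the anaphase-promoting complex, lies at chr1:43358955-43363203 (plus strand). After irradiation CDC20 stood at 553 and 565 CPM in Mutant and 616 and 797 CPM in Null, against 153 and 325 CPM in WT. Combination libraries of CDC20 stood at 486 and 651 CPM in Mutant and 694 and 825 CPM in Null, against 145 and 191 CPM in WT. Both WT libraries were below the others, but they differed from each other after irradiation, and limma called neither difference (1.47 ± 0.67 with adjusted p = 0.466 and 2.18 ± 0.67 with adjusted p = 0.0952), while DESeq2 called CDC20 after the combination and the GC slope fit under both treatments. CDC20 read 318 and 598 CPM in Mutant and 586 and 530.4 CPM in Null, against 154 and 406 CPM in WT under APR-246 and 188 and 348 CPM in Mutant and 257 and 404 CPM in Null, against 122 and 279 CPM in WT under solvent, with overlap. UBE2C, the ubiquitin-conjugating enzyme of that complex, differed by 2.01 ± 0.49 with adjusted p = 0.0341 after the combination and 1.43 ± 0.49 with adjusted p = 0.224 after irradiation, and PTTG1, the separase inhibitor securin, by 1.60 ± 0.43 with adjusted p = 0.0589 and 1.30 ± 0.43 with adjusted p = 0.202.

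FOXM1, the transcription factor that drives late mitotic genes, lies at chr12:2857681-2877155 (minus strand). FOXM1 after irradiation read 104 and 107 CPM in Mutant and 85.2 and 96.3 CPM in Null, against 32.2 and 46.2 CPM in WT. FOXM1 after the combination read 122 and 144 CPM in Mutant and 102 and 123 CPM in Null, against 29.8 and 38.1 CPM in WT. Every Mutant and Null library was above both WT libraries, and the difference was called after the combination (2.05 ± 0.48 with adjusted p = 0.0282, 4.14-fold) and not after irradiation (1.31 ± 0.48 with adjusted p = 0.282). Under APR-246 FOXM1 read 92.9 and 136 CPM in Mutant and 90.4 and 110.3 CPM in Null, against 36.9 and 72.7 CPM in WT, and under solvent 54.1 and 77.8 CPM in Mutant and 56.9 and 66.00 CPM in Null, against 34.3 and 49.4 CPM in WT, with WT lowest. MYBL2, the MuvB partner that precedes FOXM1, lies at chr20:43667019-43716496 (plus strand). MYBL2 after irradiation read 160.4 and 182 CPM in Mutant and 169 and 250.6 CPM in Null, against 68.9 and 135 CPM in WT, and after the combination 169 and 242 CPM in Mutant and 221 and 380.1 CPM in Null, against 61.02 and 84.4 CPM in WT. WT was lowest in deposited CPM, yet limma called neither difference (0.94 ± 0.68 with adjusted p = 0.843 and 1.96 ± 0.68 with adjusted p = 0.146), while DESeq2 called MYBL2 after the combination and the GC slope fit under both treatments. MYBL2 read 122 and 247 CPM in Mutant and 220.0 and 241 CPM in Null, against 65.8 and 179 CPM in WT under APR-246 and 47.7 and 100.0 CPM in Mutant and 102 and 165 CPM in Null, against 58.7 and 102 CPM in WT under solvent, with overlap between Mutant and WT. TOP2A, the topoisomerase that untangles sister chromatids, lies at chr17:40388516-40417950 (minus strand). TOP2A after irradiation read 63.4 and 39.9 CPM in Mutant and 90.99 and 42.3 CPM in Null, against 43.7 and 19.6 CPM in WT, and after the combination 110.2 and 49.8 CPM in Mutant and 97.7 and 24.3 CPM in Null, against 54.1 and 39.2 CPM in WT. Its lines overlapped, and the differences were 0.90 ± 0.41 with adjusted p = 0.464 and 0.60 ± 0.41 with adjusted p = 0.424. Limma called neither, and the GC slope fit called both. TOP2A read 86.05 and 41.7 CPM in Mutant and 53.99 and 62.6 CPM in Null, against 55.3 and 40.97 CPM in WT under APR-246 and 109 and 30.9 CPM in Mutant and 58.5 and 27.2 CPM in Null, against 57.9 and 24.4 CPM in WT under solvent, again with overlap.

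**Figure D3:**
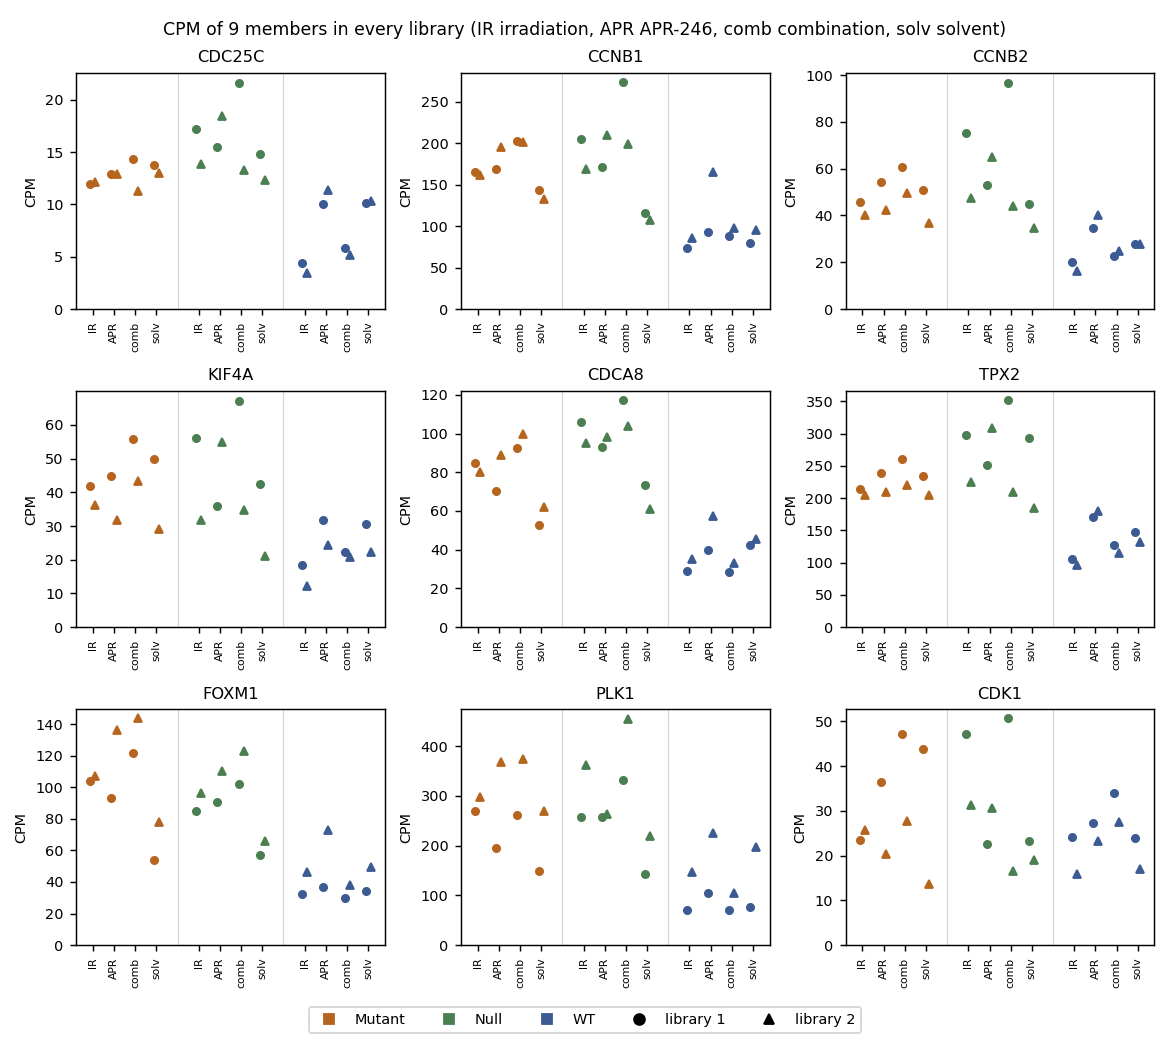
Deposited CPM (y axes, linear from 0) of CDC25C, CCNB1, CCNB2, KIF4A, CDCA8, TPX2, FOXM1, PLK1 and CDK1 in each of the 24 libraries, by line and treatment (x axes); each point is 1 library. CDC25C in WT lies at 4.41 and 3.42 CPM after irradiation and at 10.1 and 10.3 CPM under solvent, while CDK1 shows no such step.

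Calls of single members differed in how far they rested on 1 library. CDC25C, CCNB2 and KIF4A were called after irradiation and after the combination whichever of the 24 libraries was left out: CDC25C kept 1.60 to 1.75 after irradiation, CCNB2 1.34 to 1.53 and KIF4A 1.32 to 1.48. KIF4A and CCNA2 lost both calls, and PRC1 its combination call, without TMM scaling, and AURKA lost its irradiation call and BIRC5 its combination call with DESeq2's size factors in the limma fit. Without the first WT irradiation library, KIF20A was at 1.37 (adjusted p = 0.199), KIF2C at 1.27 (adjusted p = 0.189) and TPX2 at 0.99 (adjusted p = 0.233) after irradiation. The irradiation call of CDCA8 was lost when any 1 of 8 libraries was left out, those of CENPA and CCNA2 with any 1 of 5, and that of AURKA with any 1 of 16. After the combination, KIF20A (1.66, adjusted p = 0.0889) and CDCA8 (1.78, adjusted p = 0.0973) lost their calls without the first WT combination library, and KIF2C without the second (1.76, adjusted p = 0.0508). CENPA, ESPL1, CCNA2, INCENP, PRC1 and TPX2 lost theirs without either WT combination library. The combination calls of AURKA, FOXM1, UBE2C, CCNB1 and BIRC5 were lost on leaving out any 1 of 3, 4, 7, 10 and 14 libraries, in that order of genes.

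Mutant and Null were each also set against WT, in 2 comparisons that share the WT libraries. After irradiation 5 members were called higher in Mutant than in WT, CDC25C, CCNB2, KIF2C, KIF4A and KIF20A (0.44% of all genes), and 9 in Null, the same 5 with CCNA2, AURKA, CENPA and TPX2 (0.706%). Median differences were 0.87 in Mutant and 1.14 in Null. After the combination 9 members were called in Mutant, CDC25C, CCNB2, CCNA2, CDCA8, KIF2C, KIF4A, KIF20A, PRC1 and TPX2 (0.885%), with a median of 1.08. In Null 15 were called (1.48%), the same 9 with CCNB1, AURKA, INCENP, CENPA, UBE2C and ESPL1, with a median of 1.14. CDCA8 after irradiation, and BIRC5 and FOXM1 after the combination, were called for the mean of the lines but in neither line alone. CDC25C differed from WT by 1.53 ± 0.27 with adjusted p = 0.00607 in Mutant and 1.81 ± 0.27 with adjusted p = 0.0014 in Null after irradiation. CDC20 had the highest difference of Null minus WT after the combination (2.49 ± 0.77 with adjusted p = 0.0978), and FOXM1 that of Mutant minus WT (2.08 ± 0.56 with adjusted p = 0.0689), neither of them called by limma. With APR-246, 7 members in Mutant and 12 in Null had an unadjusted p below 0.05 by limma, beside 1395 and 1532 of all 20668 genes. With solvent 2 and 3 members did, beside 1200 and 1511 of all genes. Under APR-246 and under solvent limma called 0 members in either line. These counts also rested on few libraries: on leaving out each of the 24 in turn they ran from 1 to 5 in Mutant and 3 to 10 in Null after irradiation, both lowest without the first WT irradiation library. After the combination they ran from 0 in Mutant, without the first Mutant combination library, to 11, and from 5 in Null, without the first WT combination library, to 19. Without TMM scaling the counts were 10 in Mutant and 14 in Null after irradiation, 14 and 19 after the combination, and 0 and 3 under APR-246. After the combination the median of all genes moved by -0.07 in Mutant and -0.16 in Null in that fit. The share of all genes called in it is not given here. The GC slope fit called 37 members in Mutant (5.69% of all genes) and 41 in Null (5.51%) after irradiation, and 42 (6.79%) and 40 (5.39%) after the combination. Under APR-246 it called 11 in Mutant (2.63%) and 23 in Null (3.63%), and under solvent 11 (2.57%) and 9 (4.34%).

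Differences in level moved with the GC percent of the members. The 23 members of 44.77 to 60.23% GC, a split made after the data were seen, had a median difference of 1.31 after irradiation with 9 called, beside 0.80 with 1 called for the 23 members of 35.45 to 44.34%. After the combination the medians were 1.72 with 16 called and 0.37 with 1 called. GC slopes of the irradiated libraries were 0.135 and 0.326 in Mutant and -0.0866 and 0.418 in Null, against -0.149 and 0.446 in WT. GC slopes after the combination were -0.197 and 0.228 in Mutant and -0.158 and 0.645 in Null, against -0.498 and -0.229 in WT, so both WT libraries were the lowest there. In the GC slope fit the medians of the higher-GC and lower-GC members were 1.25 (22 called) and 0.87 (20 called) after irradiation, and 1.24 (23 called) and 1.02 (20 called) after the combination. The members not called in that fit were CENPE, MAD2L1, NUSAP1 and PRC1 after irradiation, and MAD2L1, CDK1 and NUSAP1 after the combination. Members were also split, after the data were seen, by a CHR match in the searched window. The 12 without a match had medians of 1.16 after irradiation and 1.56 after the combination. Those of the 27 with a match were 0.85 and 0.60. A gene without a match may hold the element outside that window or in other letters. The GC slope fit brought the irradiation medians to 1.10 without and 0.91 with a match, and the combination medians to 1.21 and 1.07. The median GC of the genes was 48.2% without and 40.8% with a match.

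Within each line, treatment was compared with solvent, and limma called 0 to 3 members in each comparison. CDC25C was the member that fell in irradiated WT cells, by 1.29 ± 0.27 (SE) on the log2 scale (adjusted p = 0.0252, 0.408 of its solvent level), where 0.59% of all genes were called lower. In WT cells given the combination CDC25C fell by 1.09 ± 0.27 (adjusted p = 0.0481), where 0.929% were called lower. Its irradiation call was lost without the second WT solvent library (-0.98, adjusted p = 0.229) and without either WT irradiation library (-1.22 and -1.37, adjusted p = 0.14 and 0.131), and its combination call on leaving out any 1 of 19 libraries, or with edgeR (adjusted p = 0.0528) or no TMM scaling (-0.85, adjusted p = 0.139). Over the 46 members the median response of WT was -0.15 to irradiation, with 15 above 0, and 0.37 to APR-246, with 41 above 0. Its median response to the combination was -0.02, with 22 above 0, and 0.24 without TMM scaling, where the median of all genes moved by 0.15. CDC25B, the related phosphatase, had the most negative value in WT after the combination, -1.65 (adjusted p = 0.0639).

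In Null cells 3 members rose after the combination, KIF20A by 1.63 ± 0.37 with adjusted p = 0.0362, INCENP by 1.34 ± 0.33 with adjusted p = 0.0496 and MAD2L1, a checkpoint protein, by 1.31 ± 0.32 with adjusted p = 0.0479, where 1.07% of all genes were called higher. The call of KIF20A was lost when any 1 of 10 libraries was left out, those of INCENP and MAD2L1 with any 1 of 20, and edgeR called 0 of the 3. After irradiation and after APR-246 limma and edgeR called 0 members in Null, and DESeq2 called 4 each. The share of all genes called by DESeq2 is not given here, so these 4 calls are not read as a result on the members. By limma 6 and 7 of the 46 had an unadjusted p below 0.05, beside 2438 and 1797 of all 20668 genes. In Mutant cells limma, edgeR and DESeq2 called 0 members after the combination, irradiation or APR-246. By limma 6, 5 and 6 of the 46 had an unadjusted p below 0.05, beside 2439, 2711 and 1516 of all 20668 genes. Median responses of Mutant and Null were 0.43 and 0.43 to the combination, 0.14 and 0.48 to irradiation and 0.23 and 0.43 to APR-246. The irradiation median of Mutant was 0.056 without TMM scaling, 0.24 in the GC slope fit and up to 0.26 on leaving out 1 library.

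**Figure D4:**
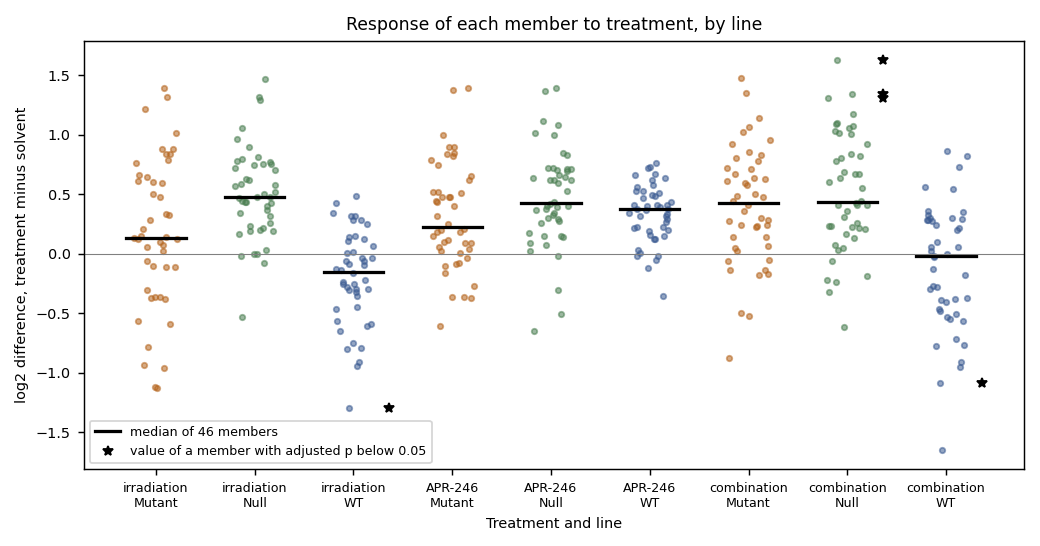
Log2 difference of treatment minus solvent (y axis) for each of the 46 members, by treatment and line (x axis); each point is 1 member and the marked points are those called. CDC25C lies at -1.29 in irradiated WT cells, and KIF20A at 1.63 in Null cells after the combination.

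The GC slope fit called more members in each line. In WT it called 11 members lower after irradiation (8.97% of all genes were called lower), CDC25C, CDC25B, CCNB2, PLK1, AURKB, CDCA8, NDC80, CENPA, KIF2C, KIF4A and TPX2. After the combination it called 8 lower in WT (10.5%), the same without CCNB2, PLK1 and TPX2. In Null it called 24 members higher after the combination (10.9%), 18 after irradiation (9.08%) and 17 after APR-246 (6.84%). In Mutant the counts were 15 after the combination (7.77%), 2 after irradiation (5.73%), INCENP and BUB1B, and 7 after APR-246 (3.35%). CDC25B was called lower in each of these 6 comparisons of Mutant and Null. When each library was left out in turn, calls in both directions were counted together. The counts ran from 4 to 34 in Null after the combination, 6 to 26 after irradiation and 5 to 24 after APR-246. They ran from 1 to 25, 0 to 12 and 0 to 14 in Mutant, and from 3 to 14 after the combination and 4 to 15 after irradiation in WT. The members called lower in WT were 23.9% of the 46 after irradiation, beside 8.97% of all genes, and 17.4% after the combination, beside 10.5%. Those called higher in irradiated Mutant were 4.35% of the 46, near the 5.73% of all genes, and are not read as a result on the members.

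Whether the lines responded differently was tested directly, as the response of Mutant and Null minus that of WT. No member was called by limma for irradiation, APR-246 or the combination, with medians of 0.59, 0.10 and 0.63 on the log2 scale. By limma 5, 0 and 10 members had an unadjusted p below 0.05, beside 634, 241 and 1099 of all 20668 genes. EdgeR called 0, 0 and 0 members, and DESeq2 1, 0 and 1. The share of all genes called by DESeq2 is not given here, so its calls are not read as a result on the members. CDC25C had the largest difference for irradiation (1.28 ± 0.33 with adjusted p = 0.459). The GC slope fit called 4 members for irradiation, CDC25C by 1.28 with adjusted p = 0.00158, CDCA8 by 0.98 with adjusted p = 0.00752, KIF2C by 1.10 with adjusted p = 0.00206 and KIF4A by 1.03 with adjusted p = 0.00432, where 0.348% of all genes were called higher. For the combination it called 7, the same 4 with NEK2, ESPL1 and FOXM1 (0.663%), at 0.83 to 1.09 on the log2 scale. These counts ran from 1 to 16 and from 2 to 18 when each library was left out in turn.

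Adding APR-246 to irradiation was examined as the combination minus irradiation in each line. Limma, edgeR and DESeq2 called 0 members in Mutant, Null or WT. By limma 0 members had an unadjusted p below 0.05, beside 405, 345 and 848 of all 20668 genes in Mutant, Null and WT. Median differences were 0.17 in Mutant, 0.04 in Null and 0.13 in WT. Without TMM scaling they were 0.33 in Mutant, -0.06 in Null and 0.39 in WT, where the median of all genes moved by 0.10, -0.06 and 0.14, and on leaving out 1 library the WT median ran from 0.043 to 0.18. CDC25C, for example, differed by -0.08 in Mutant, 0.23 in Null and 0.20 in WT on the log2 scale. The heat map of group means shows the irradiation and combination columns of a line beside each other.

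Other genes of the same pathways were taken from lists that were named with earlier results of these data known. Of 50 further mitotic genes 10 were higher in Mutant and Null after irradiation (0.527% of all genes were) and 16 after the combination (1.34%), with 0 lower and medians of 0.84 and 0.77; edgeR called 8 and 14, and DESeq2 16 and 27. HJURP, the chaperone of CENPA, differed by 1.42 after irradiation and 1.53 after the combination, called both times, and CDCA3, a mitotic regulator, by 1.35 and 2.08, called after the combination. Of 21 genes of G2 checkpoint and mitotic entry control 3 were lower by limma after irradiation (1.37% of all genes were called lower). The same 3 were lower after the combination (1.84%), and 0 were higher. In either direction edgeR called 3 and 3 and DESeq2 3 and 6, after irradiation and the combination. By limma 7 and 12 had an unadjusted p below 0.05, beside 2061 and 3718 of all 20668 genes. CDKN1A, the inhibitor of cyclin-dependent kinases, was lower, with a difference of -3.27 ± 0.34 (adjusted p = 4.08e-05) after irradiation and -3.07 ± 0.34 (adjusted p = 7.64e-05) after the combination, BTG2, an antiproliferative gene, at -1.95 ± 0.27 (adjusted p = 0.000642) and -2.23 ± 0.27 (adjusted p = 0.000164), and PLK2, a stress-induced polo-like kinase, at -1.41 ± 0.28 (adjusted p = 0.0135) and -1.85 ± 0.28 (adjusted p = 0.00134). All 3 are p53 targets, and all 3 rose in irradiated WT cells against solvent, CDKN1A by 2.02, BTG2 by 1.86 and PLK2 by 2.14, where 0.968% of all genes were called higher. Another list held 16 genes of the DREAM and MuvB complexes and of E2F repressors, and included E2F7, E2F8, RB1, DYRK1A and MYBL1 beside subunits of the complexes. Limma and edgeR called none of the 16, with 1 after irradiation and 3 after the combination at an unadjusted p below 0.05 by limma. DESeq2 called 0 and 1 (medians 0.16 and -0.06). MYBL1, a relative of MYBL2, differed by 1.18 after irradiation and E2F5, an E2F factor of DREAM, by -0.91 after the combination. The last list held 13 genes of the anaphase-promoting complex, among them its activator FZR1 and its enzyme UBE2S. Limma and edgeR called none of the 13, with 1 and 3 at an unadjusted p below 0.05 by limma. DESeq2 called 0 and 2 (medians 0.15 and 0.02). UBE2S differed by 1.26 after irradiation.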

How the data were processed

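The authors sequenced oligo(dT)-selected RNA from 24 libraries as paired reads on a BGIseq500, per the labels' protocols. FastQC, STAR and featureCounts from Subread, with GRCh38.p13, stand in the submitters' processing notes, without versions; the annotation release and the strand setting are not given in the sources used here. The deposited values are CPM per gene identifier, and dividing each library by its smallest step returned whole reads, within 0.05, for 100% of values. Between 74.5 and 81.5% of values of 2 to 9 reads were even, so the mates of a pair may have been counted singly.

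Genes were kept by filterByExpr (minimum count 10). The main test was limma 3.58.1 (trend, robust) in R 4.3.3 on log2(TMM-scaled CPM + 0.5), with 1 coefficient for each of 12 groups, 12 residual degrees of freedom and Benjamini-Hochberg adjustment over 20668 genes. The pseudocount understates changes of low genes. Recovered reads were tested with edgeR 4.0.16 and DESeq2 1.42.0 as alternatives. Exon overlap, GC percent and positions came from GENCODE, promoters from RefSeq. Scripts were tested on simulated data. Values in every library are given for the 12 called members of smallest p and 10 set by name. Members, lists and alternatives were chosen with earlier results of these data known. Each SE came from the limma fit and reflects the spread among these libraries.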

Additional observations from a re-analysis of the deposited data

How the results depend on the processing

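Directions of the member medians were kept in most settings, and the counts of called members were not. Shares of all genes called are not set beside the counts below. The counts therefore show how calls moved with the setting, and are not read as results on the members. GC slope: with that covariate the counts became 42 after irradiation, 43 after the combination, 19 under APR-246 and 11 under solvent for the level of Mutant and Null minus WT; 3, 16 and 8 in Mutant, 19, 25 and 18 in Null for irradiation, the combination and APR-246 against solvent, and 11 and 8 in WT for irradiation and the combination; the difference in response gave 4 for irradiation and 7 for the combination. DESeq2 gave 2 for the level under APR-246, 27 for the level after the combination (median 1.25), 4, 4 and 5 in Null for irradiation, APR-246 and the combination (median 0.62), 2 and 2 in WT for irradiation and the combination (median -0.18), and 1 and 1 for the response to irradiation and the combination. With edgeR the combination gave 0 in Null (median 0.62) and 0 in WT (median -0.18), and DESeq2's size factors gave 0 in WT. Without TMM scaling the level after irradiation gave 17 and the median level after the combination was 0.91, while the median of all genes moved by -0.11; relative to all genes it was 1.045. Irradiation then gave 2 in Null and 3 in WT, the median response of WT to the combination was 0.24, that of the combination over irradiation in WT 0.39, and the median difference in response to the combination 0.45. A mean of at least 1 CPM gave 1 for irradiation in Null and 2 for the combination in WT. With no filter on low values, or with only the line compared in the fit, the combination gave 0 in Null and 0 in WT, and the fit of 1 line gave 0 for irradiation in WT; that fit gives no value between lines. A pseudocount of 0.1 gave 1 for the combination in Null, and one of 2 gave 0 in WT.

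Groups share replicate numbers, which were not taken as pairs, since not every pair of groups deviated together: deviations of same-numbered libraries from their group means correlated at 0.384 to 0.896 over 55 pairs of groups and at -0.562 to -0.141 over the 11 pairs with Null APR-246. With the replicate block the level gave 24 after irradiation, 27 after the combination and 4 under APR-246; irradiation, APR-246 and the combination gave 4, 1 and 6 in Mutant and 4, 3 and 12 in Null; irradiation and the combination gave 3 and 4 in WT; and the response to the combination gave 3. With a replicate block per line these counts were 23, 27 and 5; 4 for irradiation and 4 for the combination in Mutant; 5, 3 and 7 in Null; 2 and 3 in WT; and 1. With the replicate block and the GC slope together they were 42, 43 and 21, with 13 under solvent; 5 (median 0.32), 11 and 16 in Mutant; 19, 20 and 26 in Null; 11 and 8 in WT; 5 and 9 for the responses to irradiation and the combination; and the median of the combination over irradiation in WT was -0.045.

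Leaving out each of the 24 libraries in turn gave 3 to 11 members for the level after irradiation, 4 to 20 after the combination and 0 to 2 under APR-246. It gave 0 to 4 for irradiation, 0 to 2 for APR-246 and 0 to 4 for the combination in Null, 0 to 1 for the combination in Mutant, and 0 to 1 for irradiation and 0 to 2 for the combination in WT. Medians ran from 0.95 to 1.26 for the level after the combination, 0.29 to 0.78 under APR-246 and 0.25 to 0.53 under solvent; from 0.23 to 0.41 for APR-246 in Mutant and 0.057 to 0.63 in WT; from 0.21 to 0.83 for the combination in Null and -0.18 to -0.022 in WT; from -0.016 to 0.35 for the combination over irradiation in Null; and from -0.20 to 0.31 for the difference in response to APR-246. Except where a value above shows it, the cause of a change was not tested.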
